A study of Mus musculus with 108 samples.

Results

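The chromosome ends described here were the first 2 Mb of sequence placed after the centromeric gap (3 to 5 Mb from the start, called the centromere end) and the last 2 Mb of the sequence (the telomere end) of the 19 mouse autosomes. Members were the 200 bp bins of the deposited chromatin state maps in these windows, and bins with no assembled base were left out. This gave 365699 bins of the 13168874 in the maps, with 187452 bins (37.5 Mb) at the centromere end and 178247 bins (35.6 Mb) at the telomere end. The comparison set, called the rest, was the other 11614095 assembled autosomal bins. Unassembled bins took 1.34% of the centromere windows and 6.18% of the telomere windows. Chromosome X is given apart at the close.

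The maps came from livers of inbred C57BL/6 female mice, fixed and embedded in paraffin, in which 4 histone H3 modifications were profiled by chromatin immunoprecipitation and sequencing. The SD 3m group (3 months old, standard diet fed ad libitum) held 8 mice and 30 libraries. The SD 12m group (12 months old, the same diet) held 8 mice and 29 libraries. The CR 12m group (12 months old, given 30% fewer calories than mice fed ad libitum from the age of 3 months) held 9 mice and 29 libraries. The libraries of each group were merged before the map was made, so each group had 1 map, no spread between mice could be had and no test was made. Where 3 values stand in a row with no group named, they belong to SD 3m, SD 12m and CR 12m in that order. The libraries were uneven by modification. There were 7, 8 and 5 for H3K4me3 and 7, 8 and 6 for H3K27me3. For H3K27ac there were 8, 7 and 9, and for H3K4me1 8, 6 and 9. The part that these numbers had in the differences between groups was not tested. The maps carry no read counts, so the depth behind a label is unknown. In whole liver, fewer cells of a type and less of a mark per cell cannot be told apart.

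Every bin carried 1 of 8 states, learned from the combinations of the 4 marks. State 1 is an active transcription start site and state 2 its flank, both rich in H3K4me3. States 3 and 4 are active enhancers and state 5 a poised enhancer, and states 1 to 5 together are called active here. State 6 carries H3K27me3, the mark left by the Polycomb complexes on silent developmental genes. State 7 carries weak H3K4me3 and was assigned by the study to repeats and to chromatin bound to the nuclear lamina. State 8 carries none of the marks. As a check of the labelled tissue, the starts of all 6 hepatocyte markers (Alb, Apoa1, Apob, Apoc3, Cps1 and Hnf4a) were active in all 3 groups, and those of 4, 3 and 2 of 6 markers of other liver cells were active. The part that the makeup of cells had in the results below was not tested.

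Mouse chromosomes are telocentric: the centromere, built on satellite repeats, lies at one end next to a short telomere, and the long arm ends in the other telomere. Telomeres are arrays of a short G-rich repeat bound by the shelterin proteins, and centromere-near and telomere-near chromatin is best known for H3K9me3, a mark that was not profiled in these samples. Genes placed close to such heterochromatin can be silenced by its spreading.

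The assembled sequence reached the telomere repeat on most autosomes. The hexamer TTAGGG, searched as TTAGGG or CCCTAA so that both strands were covered, occurred 852 times in the last 1 kb of the 19 autosomes (44.8 per kb) and was present on 18 of them. It occurred 9 times (0.474 per kb) in the first 1 kb of the centromere ends, against 0.408 per kb over all assembled autosomal bases. The last assembled bases of chromosome 4, the only autosome with no hexamer in its last 1 kb, are shown from the plus strand of the GRCm38.p6 reference, chr4:156358027-156358116, as an example of a tip that carried state 7. Lower case letters mark that no hexamer was found.
Telomere end of chromosome 4: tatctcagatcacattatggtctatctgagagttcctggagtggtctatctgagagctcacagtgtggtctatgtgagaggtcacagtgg
The central bin of this stretch was in state 7 in all 3 groups.

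The longest unbroken stretches that passed from unmarked at 3 months to state 7 in SD 12m are shown by their central bin, with CG in capitals, from chr3:3978401-3978600 (centromere end) and chr17:94220801-94221000 (telomere end), plus strand. Their GC contents were 39.0% and 33.5%, and they held 0 and 1 CG.
Centromere end of chromosome 3: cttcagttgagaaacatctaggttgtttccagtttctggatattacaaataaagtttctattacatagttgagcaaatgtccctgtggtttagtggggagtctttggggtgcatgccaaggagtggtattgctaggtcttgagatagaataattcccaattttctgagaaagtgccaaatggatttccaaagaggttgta
Telomere end of chromosome 17: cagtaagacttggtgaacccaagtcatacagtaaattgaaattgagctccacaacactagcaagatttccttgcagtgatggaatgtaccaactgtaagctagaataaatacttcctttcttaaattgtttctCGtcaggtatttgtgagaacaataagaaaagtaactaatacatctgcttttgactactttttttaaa
The chromosome 3 bin was in state 7 in CR 12m too, whereas the chromosome 17 bin was in state 8 there.

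The 250 bases before the start of 4 genes are shown with CG in capitals. They are Cpt1a (carnitine palmitoyltransferase 1a, the gate of fatty acid oxidation; chr19:3323051-3323300, plus strand), Fasn (fatty acid synthase; chr11:120824548-120824797, minus strand), Crebbp (an acetyltransferase that acts on H3K27; chr16:4213405-4213654, minus strand) and Fgf3 (a growth factor of the embryo; chr7:144838362-144838611, plus strand). 
Cpt1a promoter: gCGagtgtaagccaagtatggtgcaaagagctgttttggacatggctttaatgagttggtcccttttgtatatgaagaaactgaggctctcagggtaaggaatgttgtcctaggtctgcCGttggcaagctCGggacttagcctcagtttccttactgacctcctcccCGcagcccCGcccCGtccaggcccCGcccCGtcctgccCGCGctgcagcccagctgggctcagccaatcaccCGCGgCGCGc
Fasn promoter: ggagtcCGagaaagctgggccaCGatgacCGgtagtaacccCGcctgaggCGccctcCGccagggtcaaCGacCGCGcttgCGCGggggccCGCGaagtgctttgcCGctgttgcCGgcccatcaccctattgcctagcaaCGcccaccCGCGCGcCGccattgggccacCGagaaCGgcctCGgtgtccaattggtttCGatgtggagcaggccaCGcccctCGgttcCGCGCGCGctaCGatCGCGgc
Crebbp promoter: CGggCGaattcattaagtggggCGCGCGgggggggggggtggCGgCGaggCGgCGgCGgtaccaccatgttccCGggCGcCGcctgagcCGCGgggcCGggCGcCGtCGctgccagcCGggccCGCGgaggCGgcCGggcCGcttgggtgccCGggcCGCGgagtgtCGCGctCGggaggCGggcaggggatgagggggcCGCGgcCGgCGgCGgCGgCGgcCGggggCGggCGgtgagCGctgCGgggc
Fgf3 promoter: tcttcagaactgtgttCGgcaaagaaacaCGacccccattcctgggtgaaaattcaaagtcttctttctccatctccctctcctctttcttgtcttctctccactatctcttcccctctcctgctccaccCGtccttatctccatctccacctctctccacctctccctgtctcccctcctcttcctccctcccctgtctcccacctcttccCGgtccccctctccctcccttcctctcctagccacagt
These held 14, 33, 44 and 4 CG. Of the 32851 RefSeq promoters of that length 92.1% held at least 1, with a median of 6. The starts of Cpt1a and Fasn were active in every group and that of Fgf3 was in state 6 in every group, and Crebbp is taken up below.

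Gene density varied widely between ends. The centromere ends held 492 transcription start sites (13.1 per Mb) and the telomere ends 575 (16.1 per Mb), against 10.3 per Mb in the rest. Most autosomes did not share that excess, since the density was below that of the same chromosome's rest on 11 of 19 centromere ends and 10 of 19 telomere ends. It ran from 1.0 per Mb (chromosome 3) through a median of 9.23 to 41.7 (chromosome 7) at the centromere end, and from 2.63 (chromosome 3) through 9.19 to 43.7 (chromosome 10) at the telomere end. GC content was close in the 3 regions, at 42.2%, 42.4% and 41.9% for the centromere end, the telomere end and the rest. Repeats masked in the reference covered 40.7%, 34.6% and 33.3% of bases. Pseudogenes were denser at the centromere end (6.46 per Mb) than at the telomere end (4.04) or in the rest (3.88). The central 50 bases of a bin occurred once in the genome for 80.5% of centromere end bins, 88.6% of telomere end bins and 89.6% of the rest. A read of that length could thus be placed less often at the centromere end, and shares among bins with a unique centre are given for active states, state 6, state 7 and changed bins.

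At 3 months the centromere end was mostly unmarked and the telomere end less so. State 8 took 70.1% of centromere end bins, 56.7% of telomere end bins and 65.1% of the rest. Active states took 24.8%, 27.9% and 24.5%. State 6 took 2.74%, 11.1% and 8.55%, and state 7 took 2.28%, 4.21% and 1.93%. Intervals (95%, Wilson) on these shares reached at most 0.22 percentage points to either side at the centromere end and 0.231 at the telomere end, but they cover the counting of bins only.

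**Figure D1:**
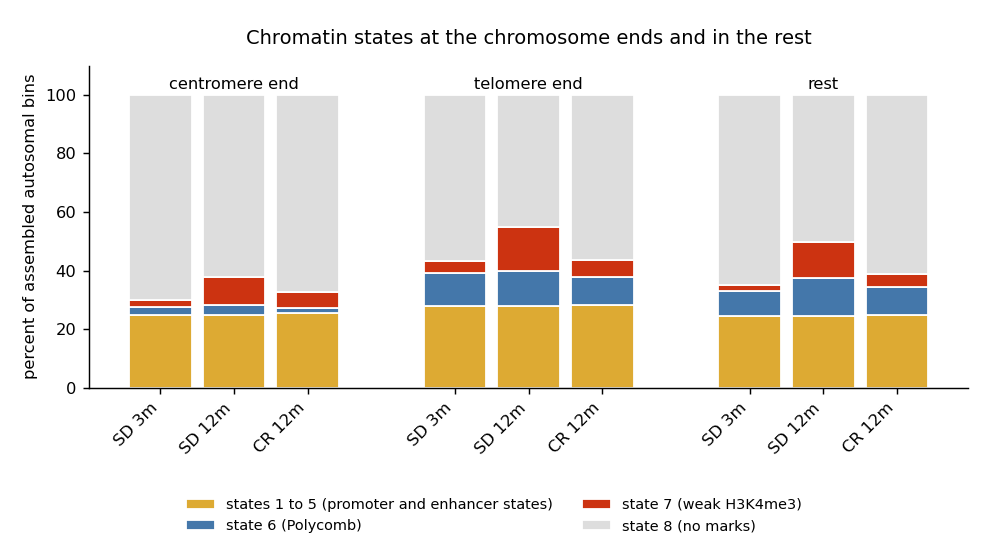
Percent of assembled autosomal bins in active states, state 6, state 7 and state 8, stacked to 100, for the centromere end, the telomere end and the rest in each group. The Polycomb share is thinnest at the centromere end in every group (2.74%, 3.38% and 1.79%), and the state 7 share is largest in SD 12m in all 3 regions (9.88%, 14.8% and 12.2%).

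The excess of active states at the telomere end was 3.47 percentage points (95% interval for counting of bins 3.26 to 3.68), and 11 autosomes were higher there than in their own rest and 8 lower. The centromere end differed by 0.385 points (0.188 to 0.582), with 9 autosomes higher and 10 lower. Among bins with a unique centre alone the differences were 2.93 points at the centromere end (29.4% against 26.5%) and 4.07 points at the telomere end (30.6%). The span between autosomes was far larger than either difference. Active states covered from 0.0% (chromosome 14) through a median of 22.4% to 75.5% (chromosome 19) of the centromere end, and from 0.695% (chromosome 17) through 24.6% to 78.8% (chromosome 11) of the telomere end. Without chromosome 19 the centromere end lay below the rest by 2.25 points, as leaving out chromosomes 2, 11, 12 or 16 also turned the sign, and without chromosome 11 the telomere excess was 1.2 points. The telomere excess was not particular to the window. In steps of 0.5 Mb from 2.0 to 6.5 Mb from that chromosome end, active states took 25.4% to 38.2% in SD 3m. In the outermost step they took 20.4%. Active shares barely moved with age or diet in the pooled bins, at 24.7% and 25.5% for the centromere end and 28.0% and 28.2% for the telomere end in the groups aged 12 months, SD before CR.

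Over the pooled bins, start site states were denser at both ends than in the rest in every group, though in SD 3m state 1 was above its own rest on 13 of 19 centromere ends and 8 of 19 telomere ends. State 1 took 0.650%, 0.625% and 0.551% of the centromere end, against 0.433%, 0.381% and 0.313% of the rest. At the telomere end it took 0.753%, 0.641% and 0.548%. The flank state 2 was lower at 12 months than at 3 months everywhere, at 1.65%, 0.714% and 0.604% of the centromere end and 2.12%, 0.770% and 0.660% of the telomere end. From SD 3m to SD 12m it was lower on 17 of 19 centromere ends, with the other 2 equal, and on 19 of 19 telomere ends. Poised enhancers went the same way, with state 5 at 5.68%, 4.17% and 2.37% of the centromere end, 6.16%, 2.73% and 2.14% of the telomere end and 5.77%, 2.81% and 2.55% of the rest. The 4.17% of the centromere end in SD 12m was thus 1.48 times the share in the rest, and 47.1% of its state 5 bins of SD 3m kept that label at SD 12m, against 25.5% at the telomere end and 30.1% in the rest.

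Polycomb chromatin was scarce next to the centromere. State 6 covered 2.74%, 3.38% and 1.79% of the centromere end, whereas it covered 8.55%, 12.9% and 9.81% of the rest. The share was below that of the same chromosome's rest on 18 of 19 autosomes in SD 3m and on 19 of 19 in each older group. The exception in SD 3m was chromosome 11, whose centromere end also had the highest share, 13.2%. The lowest and the median centromere ends had 0.0% and 2.25% in SD 3m, 0.0% and 2.01% in SD 12m, then 0.0% and 1.14% with restriction. The highest was chromosome 6 in the older groups, with 13.1% (SD 12m) and 8.14% (CR 12m). The medians of the rest were 8.08%, 12.4% and 8.44%. A low share was not particular to the window. In steps of 0.5 Mb from its inner edge to 20 Mb from its outer edge, SD 3m shares ran from 1.06% to 7.46%. All of these lay below the 8.55% of the rest.

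The telomere end had no such shortage. State 6 covered 11.1%, 11.9% and 9.67% of it, and the telomere end was above the centromere end of its own chromosome on 17, 14 and 17 of 19 autosomes. Against the rest it was above on 8, 6 and 10. The autosomes were spread widely, in SD 3m from 0.0% (chromosome 17) through a median of 8.42% to 33.8% (chromosome 2). Telomere ends of chromosomes 2, 15, 8 and 1 had 33.8%, 30.9%, 29.9% and 27.2% in SD 3m. That of chromosome 8 had 8.12% and 3.62% in the older groups, SD 12m first, and that of chromosome 1 had 13.0% and 11.6%. On chromosome 19 the share was higher in SD 12m only, at 8.42%, 27.2% and 7.65%.

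**Figure D2:**
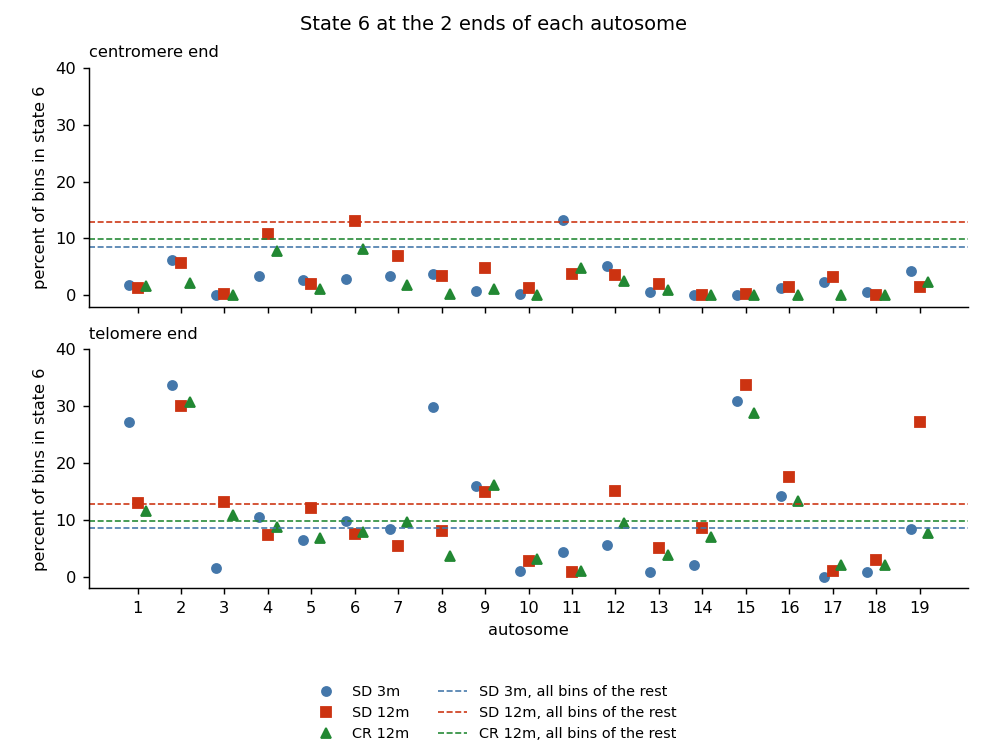
Percent of bins in state 6 at the centromere end (upper panel) and the telomere end (lower panel) of each of the 19 autosomes in SD 3m, SD 12m and CR 12m, with dashed lines for all bins of the rest in each group. Centromere ends stay at 13.2% or less, while telomere ends reach 33.8%.

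The shortage at the centromere end was also seen within classes of sequence and position. Among bins with a unique centre, state 6 covered 3.27%, 4.06% and 2.16% of the centromere end and 9.16%, 13.8% and 10.6% of the rest. When bins were split by the GC content of their 100 kb block, the centromere end was below the rest in all 7 classes in each of the 3 groups. In blocks of 42 to 44% GC, for instance, state 6 took 2.56% of centromere end bins, 19.6% of telomere end bins and 13.6% of the rest in SD 3m. Between genes it took 2.78%, 14.5% and 9.57%, and within 2 kb of a start site 4.48%, 11% and 11.3%. State 6 was also less lasting at the centromere end in the pooled bins. Of the Polycomb bins of SD 3m, 35.2% at the centromere end, 57.3% at the telomere end and 56.4% in the rest kept state 6 by SD 12m, and 31.8%, 52.2% and 51.5% kept it under CR 12m. The kept shares are not given by autosome. The centromere end of chromosome 11, the richest in state 6 in SD 3m, had 13.2%, 3.72% and 4.85%. Bins in state 6 in all 3 groups made up 0.637% of the centromere end, 4.84% of the telomere end and 3.73% of the rest.

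The longest stretch in state 6 in all 3 groups at the telomere end was chr15:102738401-103059600, a run of 321.2 kb. It holds Hoxc13 to Hoxc4, homeobox genes that pattern the body axis, and the non-coding RNA gene Hotair. At the centromere end the longest was chr19:4972601-5000000, a run of 27.4 kb that is cut off by the edge of the window. This run holds Npas4, a transcription factor gene induced by neuronal activity.

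State 7 had the largest relative rise of the 8 states between SD 3m and SD 12m. At the centromere end it covered 2.28%, 9.88% and 5.48% of bins. At the telomere end the shares were 4.21%, 14.8% and 5.52%, and in the rest 1.93%, 12.2% and 4.43%. SD 12m was thus 4.33, 3.53 and 6.31 times SD 3m in the centromere end, the telomere end and the rest. SD 12m was above SD 3m on 19 of 19 centromere ends and 12 of 19 telomere ends, and on 19 of 19 autosomes in the rest. CR 12m was above SD 3m on 16, 8 and 18 autosomes. SD 12m was above CR 12m on 16 centromere ends, 15 telomere ends and 19 of 19 autosomes in the rest.

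These pooled shares were carried by few chromosomes. In SD 12m the centromere ends ran from 0.06% (chromosome 14) through a median of 3.13% to 61.9% (chromosome 3), and the telomere ends from 0.137% (chromosome 7) through 8.08% to 56.1% (chromosome 17). The rest ran from 1.43% (chromosome 19) through 11.9% to 18.8% (chromosome 1). The difference between the centromere end and the rest was -2.32 percentage points (95% interval for counting of bins -2.45 to -2.18), and the end was lower on 15 of 19 autosomes. The telomere end lay 2.65 points above it (2.48 to 2.82) but was higher on only 10. Without chromosome 17 that excess was 0.400 points, with 12.5% at the telomere end against 12.1% in the rest. Among bins with a unique centre state 7 took 10.6%, 14.8% and 12.5% of the centromere end, the telomere end and the rest in SD 12m. Without chromosome 3 the centromere end had 6.94% in place of 9.88%.

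**Figure D3:**
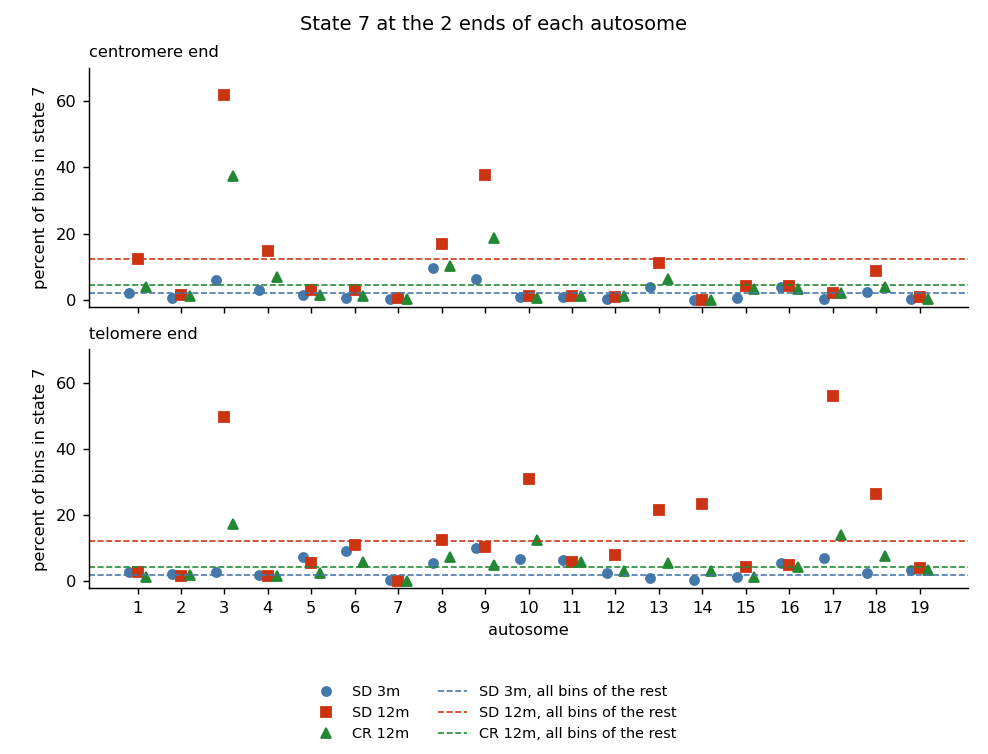
Percent of bins in state 7 at the centromere end (upper panel) and the telomere end (lower panel) of each of the 19 autosomes in SD 3m, SD 12m and CR 12m, with dashed lines for all bins of the rest in each group. In SD 12m the centromere ends of chromosomes 3 (61.9%) and 9 (37.8%) and the telomere ends of chromosomes 17 (56.1%), 3 (49.7%) and 10 (30.9%) stand above the others.

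The 2 centromere ends with 20% or more of state 7 in SD 12m, on chromosomes 3 and 9, held 53.9% of all state 7 bins of the centromere ends. The 6 such telomere ends, on chromosomes 3, 10, 13, 14, 17 and 18, held 74.2% of those of the telomere ends. Chromosome 3 was the only autosome with both ends among them. Its centromere end had 5.93%, 61.9% and 37.3%, and its telomere end 2.96%, 49.7% and 17.5%. The telomere end of chromosome 17 had 7.14%, 56.1% and 14.1%, so that its CR 12m value lay closer to SD 3m than to SD 12m.

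The ends rich in state 7 were poor in GC. The 2 centromere ends had 38.3% and 38.8% GC, and the other 17 had 39.4 to 46.9%. The 6 telomere ends had 38 to 40.5%, and the other 13 had 39.2 to 49.3%. The 2 centromere ends held 2 and 11 start sites, against 6 to 81 at the others, but the 6 telomere ends held 5 to 83, against 8 to 72 at the others. In 100 kb blocks under 38% GC, state 7 took 47.2% of centromere end bins, 37.8% of telomere end bins and 41.7% of the rest in SD 12m, and 28.2%, 7.76% and 13.6% in CR 12m. In blocks of 38 to 40% GC it took 16.2%, 33.0% and 16.6% in SD 12m, and in blocks of 48% GC and over 0.0519%, 0.269% and 0.342%. The steep fall with GC was shared by the ends and the rest.

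**Figure D4:**
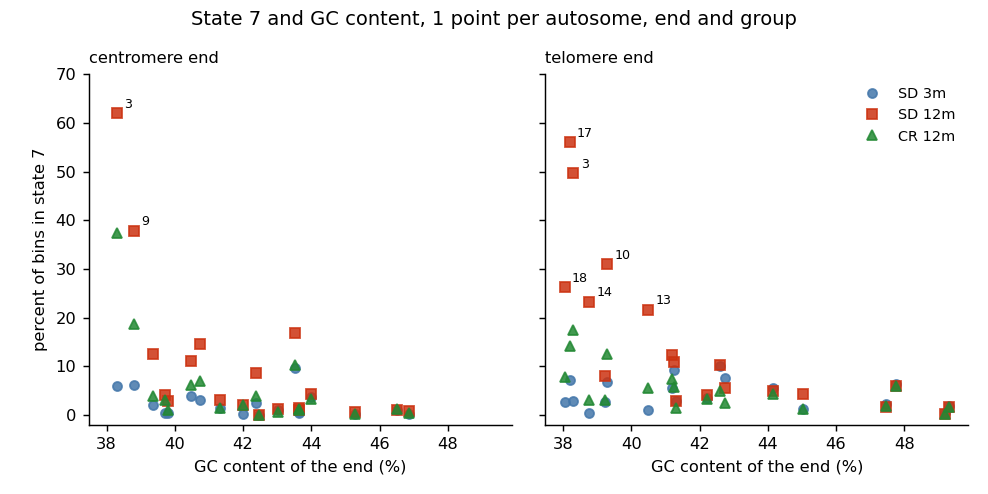
Percent of bins in state 7 against GC content (%) at the centromere end (left) and the telomere end (right), 1 point per autosome and group. In SD 12m all values of 20% or more lie at a GC content of 40.5% or less, and the numbers name those autosomes.

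The outermost assembled sequence next to the telomere carried state 7 already at 3 months. In the last 100 kb of assembled bins it took 30.5%, 37.0% and 24.8% of bins, and in the last 10 kb 44.1%, 48.6% and 38.1%. The SD 3m values compare with 1.93% in the rest, and with 2.77% in blocks of the rest of 40 to 42% GC, the class that holds the 40.6% GC of the last 100 kb. Bins of state 7 were present in the last 100 kb of 16 of 19 autosomes in SD 3m, but unevenly. State 7 took more than 50% of that sequence on 4 autosomes, and only 0.4% and 1.0% on chromosomes 3 and 14. The highest were chromosome 16, with 96.4%, 79.2% and 74.0%, and chromosome 17, with 92.6%, 99.8% and 94.0%. Chromosomes 7, 12 and 13 had none in SD 3m. Bins with a unique centre gave 31.3%, 38.1% and 24.8%.

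This tip of state 7 was mostly shared by the 3 groups. Of the 2902 bins that carried it in the last 100 kb at 3 months, 84.6% kept it in SD 12m and 72.5% under restriction. In the rest 72.2% and 52.3% of such bins kept it. Active states took 5.57% of the last 100 kb in SD 3m, against 27.9% of the whole telomere end. In steps of 20 kb the SD 3m share of state 7 was 38.4% in the outermost step, 33.9% at 100 to 120 kb and 0.0% at 480 to 500 kb. The last 500 kb together had 12.3%, 21.2% and 11.9%.

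Next to the centromere such a tip was smaller over all bins, most clearly in SD 3m. In the first 100 kb state 7 took 6.56%, 16.6% and 12.9% of bins. In the first 10 kb it took 13.6%, 31.4% and 34.8%. Among bins with a unique centre, the first 10 kb had 18.9%, 44.7% and 52.2%. The last 10 kb had 48.4%, 51.1% and 39.9% among such bins, so the centromere side was the higher in CR 12m. Only 45.9% of the bins of the first 100 kb had a unique centre, against 75.6% in the last 100 kb, and among those bins state 7 took 9.40%, 26.5% and 20.3%. Repeats covered 53.0% of the first 100 kb and 45.1% of the last. State 7 was present there on 9 autosomes in SD 3m. On chromosomes 7, 8, 14, 16 and 19 the first 100 kb was wholly in state 8 in the 3 groups, and 4.0 to 33.4% of its bins had a unique centre.

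**Figure D5:**
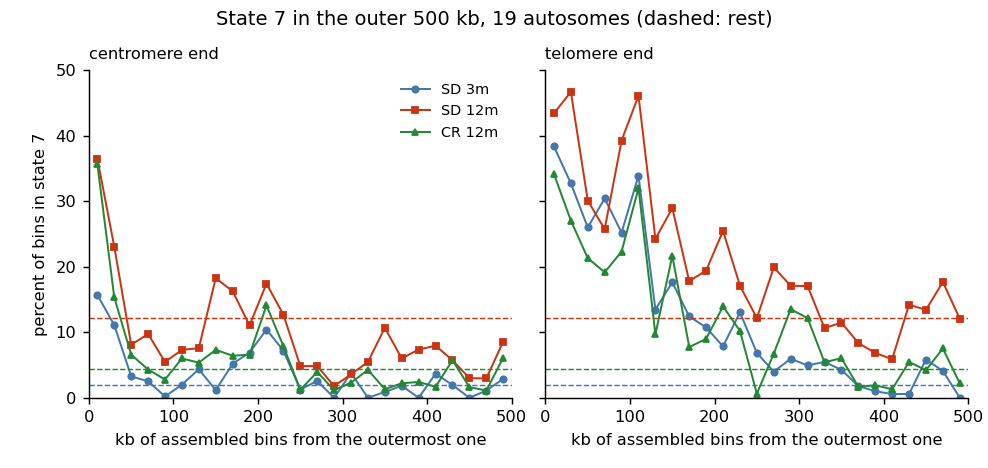
Percent of bins in state 7 in steps of 20 kb over the outer 500 kb of assembled bins, pooled over 19 autosomes, for the centromere end (left) and the telomere end (right), with dashed lines for the rest in each group. In SD 3m the telomere end falls from 38.4% in the outermost step to 0.0% in the innermost, and the centromere end starts at 15.7%.

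The centromere end changed least. Between SD 3m and SD 12m the share of bins that took another state was 22.3% at the centromere end, 34.3% at the telomere end and 32.9% in the rest, with 32.8% over all assembled autosomal bins. With CR 12m in place of SD 12m the shares were 19%, 27.2% and 24.9%, with 24.8% over all bins. Both comparisons share the SD 3m map, so they are not independent. The centromere end differed from the rest by -10.6 points in SD 12m (-10.8 to -10.5, counting of bins only) and was lower on 16 of 19 autosomes. With CR 12m the difference was -5.95 points (-6.13 to -5.77), and it was lower on 14. The telomere end lay above the rest by 1.37 points (1.15 to 1.60, higher on 9 of 19) and by 2.29 points (2.08 to 2.50, higher on 13). Without chromosome 3 the first of these was 0.10 points, and without chromosome 8 the second was 1.05 points. On the same chromosome the telomere end had changed more than the centromere end on 17 of 19 autosomes in SD 12m and on 13 in CR 12m.

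Changed shares at the centromere end ran from 0.06% (chromosome 14) through a median of 21.1% to 56.5% (chromosome 3) in SD 12m. At the telomere end they ran from 25.3% (chromosome 15) through 31.9% to 61.4% (chromosome 3). The lowest telomere end was therefore above the median centromere end. In CR 12m the centromere ends ran from 0.06% (chromosome 14) through 17.5% to 39.7% (chromosome 11), and the telomere ends from 9.80% (chromosome 18) through 31.1% to 49.2% (chromosome 8). SD 12m had changed more than CR 12m on 9 centromere ends and less on 9, and more on 12 telomere ends and less on 7. In the rest it had changed more on 19 of 19 autosomes. Bins with a unique centre gave 25.6%, 36.3% and 34.8% in SD 12m, so the centromere end still differed from the rest by -9.27 points.

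Bins in state 8 in all 3 groups made up 55.9% of the centromere end, 35.0% of the telomere end and 41.5% of the rest. With these left out, the centromere end differed from the rest by -5.67 points in SD 12m and by 0.474 points under CR 12m, and the telomere end by -3.48 and -0.715 points. Bins that left state 8 by SD 12m were 12.1% of all bins at the centromere end, 18.8% at the telomere end and 20.4% in the rest. Moves among the active states took 5.66%, 7.25% and 5.97% of bins, and moves into state 8 took 4.02%, 7.26% and 5.70%.

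Among bins without marks at 3 months, 11.3% at the centromere end and 20.2% at the telomere end had state 7 in SD 12m, with 16.5% over all such autosomal bins. The centromere end was under its own rest on 15 of 19 autosomes and the telomere end above on 8. In CR 12m the pooled shares were 5.50% and 5.25%, with 5.23% over all. The centromere end was then under its own rest on 13 of 19 autosomes and the telomere end on 12. Without chromosome 3 the CR 12m shares were 3.28% and 4.07%, against 5.08% in the rest. Of these unmarked bins, 3.29% at the centromere end and 9.37% at the telomere end had state 6 in SD 12m, with 11.8% over all. In CR 12m these were 1.16% and 6.25%, with 7.69% over all. The centromere end was under its own rest on 19 of 19 autosomes in both groups. The step into the enhancer state 4 took 2.30% and 3.19% by SD 12m, or 3.45% and 3.89% by CR 12m, against 2.51% and 2.86% in the rest. State 7 bins of SD 3m kept their label more often at the ends than in the rest, with 83.4% and 77.1% at SD 12m against 72.2%, and 69.3% and 59.0% at CR 12m against 52.3%.

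The longest stretches of each change lay in different kinds of sequence. From state 8 to state 7 the longest were chr3:3936801-4020200 at the centromere end (83.4 kb, 36.3% GC), which overlaps the pseudogene Gm2077, and chr17:94190001-94251600 at the telomere end (61.6 kb, 38.2% GC), which overlaps no gene. In CR 12m the first was 50.8% state 7 and 49.2% state 8, and the second was 98.4% state 8. From state 8 to state 6 they were chr7:3391801-3436600 (44.8 kb), which holds Cacng8 and Cacng6, genes of calcium channel gamma subunits, and chr3:158102601-158182600 (80.0 kb) inside Lrrc7, which encodes a protein of the postsynaptic density. In CR 12m the first was in state 8 throughout and the second was 83.5% state 6. From state 8 to state 4 they were chr11:4005001-4015400 (10.4 kb, in state 4 throughout in CR 12m) and chr19:61085801-61095600 (9.8 kb, over Grk5 and Zfp950, 53.1% state 4 in CR 12m).

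At start sites the ends were as active as the rest, but the centromere end had less Polycomb. Of the 492 start sites of the centromere ends 311 (63.2%), 323 and 324 were active. Of the 575 of the telomere ends 348 (60.5%), 340 and 354 were active, and the share in the rest was 59.8% in SD 3m. State 6 lay at 17 (3.46%), 23 (4.67%) and 12 (2.44%) start sites of the centromere ends. At the telomere ends it lay at 60 (10.4%), 77 (13.4%) and 68 (11.8%), close to the 10.3%, 14.1% and 11.8% of the rest. State 7 lay at 13 (2.26%), 42 (7.30%) and 11 telomere end start sites, with 1.48%, 3.54% and 1.41% in the rest. At the centromere ends it lay at 7, 11 and 2. Between SD 3m and SD 12m, 21 centromere end start sites became active and 9 ceased to be, and at the telomere ends 11 did and 19 ceased to be. Of the 23896 start sites of the rest, 625 became active and 575 ceased to be. Whether the ends differ from the rest in this was not tested. The state at the start site differed from SD 3m at 28.9% of centromere end, 34.8% of telomere end and 32.7% of other start sites in SD 12m, and at 33.5%, 34.6% and 34.7% in CR 12m.

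Genes of liver metabolism kept active starts at both ends. Of the 19 listed genes that lie in an end, 11 next to the centromere and 8 next to the telomere, 19, 18 and 19 had an active start. The exception was Crebbp, whose start carried state 4, state 7 and state 4, while 21, 16 and 21 of the 21 bins within 2 kb of it were active. Over the body of Cpt1a active states took 83.1%, 94.9% and 100.0% of bins. For Fasn the shares were 46.8%, 100.0% and 100.0%, and for Nadsyn1, which makes NAD, 22.5%, 55.1% and 100.0%. For Dhcr7, the last enzyme of cholesterol synthesis, they were 76.6%, 84.4% and 100.0%. The insulin receptor gene Insr had 77.2%, 76.3% and 89.1%. Of the 19 genes, 11 were wholly active in all 3 groups, and in 7 of the other 8 the active share of the body was highest, or equal to the highest, in CR 12m. The exception was Cyp51, also of cholesterol synthesis, with 86.8%, 84.3% and 86.0%. Fasn and Lrp5 were equal in SD 12m and CR 12m. This list was chosen with earlier results known, and the same count over all genes is not given here. Over all bins in gene bodies beyond 2 kb of a start site, active states took 41.3%, 40.6% and 42.2% of the centromere end, 39.0%, 38.6% and 40.4% of the telomere end and 37.5%, 37.0% and 37.8% of the rest.

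The listed developmental and neural genes were mostly under Polycomb, and most of the list lay next to the telomere. Of the 26 listed genes in the ends, 6 next to the centromere and 20 next to the telomere, 17, 18 and 18 had a start in state 6. Over all start sites in SD 3m the shares were 3.46% at the centromere ends and 10.4% at the telomere ends. The list was chosen with earlier results known, and 9 of its genes are neighbours in the Hoxc cluster. Active starts were found at 5, 5 and 6 listed genes, with Sox18, Ski, Fzd1, Tbx10 and Esr1 active in every group. All 9 listed Hoxc genes were wholly in state 6 in every group, as were Oprl1 (an opioid-like receptor), Sp8 (a limb and brain regulator), Fgf3 and Fgf4. Next to the centromere Sox17, an endoderm regulator, was the one listed gene wholly in state 6 in every group. Calcr, the calcitonin receptor gene, had a start that carried state 6 in SD 12m and no mark in the other groups. Fgf14, a growth factor gene of neurons whose start lies 0.225 Mb from the end of chromosome 14, was in state 8 over 98.9%, 68.0% and 93% of its bins, and in state 7 over 0.401%, 29.9% and 3.20%. Esr1, the estrogen receptor gene, had an active start in every group, and active states took 35.8%, 36.7% and 39.7% of its bins.

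All 21 listed broadly expressed genes in the ends had an active start in every group, and 14 were wholly active in every group. The other 7 had their highest active share in CR 12m, alone or as an equal. Prpf6 and Sdf4 were equal in SD 12m and CR 12m, and Tcea1 in SD 3m and CR 12m. The same count over all genes is not given here. Over all gene body bins of the rest beyond 2 kb of a start site, active states took 37.5%, 37.0% and 37.8%. Among the 7 genes was Rtel1, a helicase that keeps telomeres intact, which lies 0.79 Mb from the end of chromosome 2. Active states took 47.8%, 82.8% and 100.0% of its bins. Of 5 imprinted genes in the ends, 2 had an active start in SD 3m and 3 in each older group. The one that differed was Cdkn1c, a growth inhibitor, whose start carried no mark at 3 months and state 4 in both older groups. Peg10 and Sgce, which share a start region on chromosome 6, had starts in state 8 in all 3 groups, while state 6 took 0.0%, 33.9% and 41.3% of the bins of Sgce.

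The centromere end of chromosome 14 stood apart from those of the other autosomes. Only 7.71% of its bins had a unique centre, 100.0% were in state 8 in SD 3m and 0.06% had another state in either older group. The low share of unique centres moved with this result, and its part in it was not tested. Without chromosome 14 the changed share of the centromere end in SD 12m was 23.5% in place of 22.3%, and state 6 in SD 3m was 2.89% in place of 2.74%.

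On chromosome X the ends held 7845 assembled bins next to the centromere and 5503 next to the telomere. The first had a unique centre for 10.5% of bins and was in state 8 throughout in SD 3m. At the telomere end of X state 6 covered 26.9%, 3.53% and 0.491% of bins, while in the rest of X it covered 28.6%, 45.7% and 25%. State 8 at that end covered 46.4%, 72.6% and 74.3%, and active states 25.7%, 21.8% and 23.9%, against 3.44%, 3.23% and 3.70% in the rest of X. The Polycomb share at this end was thus lower at 12 months in both groups, whereas in the rest of X it was higher in SD 12m.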

How the data were processed

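Livers of mice were profiled for H3K4me3, H3K27me3, H3K27ac and H3K4me1. Reads of 50 bases were aligned by the authors to mm10 with bwa 0.6.2-r126 and filtered with samtools 0.1.18 (versions from the submitters' processing notes), dropping poorly mapped and duplicate reads. They merged the libraries of a group and learned 8 states with ChromHMM. The deposited values are thus state labels of 200 bp bins, 1 map per group, and carry no score or count. Another group (SD 6m, 6 mice and 20 libraries) was not used here.

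Shares of bins were computed with Python 3.11.15, numpy 2.4.6, pandas 2.3.3 and scipy 1.17.1, and plotted with matplotlib 3.10.9. A bin with no assembled base in GRCm38.p6, the reference that mm10 holds, was left out. Intervals (95%) are Wilson for shares and Newcombe for differences. They take bins as independent, which neighbours are not. Start sites came from the longest curated RefSeq transcript, and 47 of 71 named genes had a promoter sequence. Uniqueness of 50 bases was searched on both strands. The scripts were tested on simulated data. Members, gene lists and alternatives were chosen with earlier results of these data known. Genes named are those of fixed lists whose start lies in an end, genes at the longest stretches of each change, and the highest and lowest autosomes.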

Additional observations from a re-analysis of the deposited data

How the results depend on the processing

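Each group had 1 map of merged libraries, so a difference between groups or regions has no error over mice, and intervals cover the counting of bins only. No paired analysis was possible because each group has a single map of merged libraries. The maps do not give the depth, which is unknown.

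Differences from the rest are given in percentage points, the centromere end before the telomere end. As reported, they were 0.385 and 3.47 for active states in SD 3m, -2.32 and 2.65 for state 7 in SD 12m, -10.6 and 1.37 for the changed share in SD 12m and -5.95 and 2.29 for that in CR 12m. In the 64 values under the 8 other settings, 9 reversed, 39 moved beyond the counting interval and 16 did not. The cause was not tested. Of the directions, only the lower changed share of the centromere end in SD 12m and the higher active share of the telomere end held under all 8 settings and without any 1 autosome.

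With windows of 1 Mb the values were -1.2 (reversed) and 6.94 for active states, -2.81 and 6.61 for state 7, -12.7 and 0.429 for the changed share in SD 12m, and -7.98 and 1.25 in CR 12m. Windows of 5 Mb gave -3.65 (reversed) and 6.21, 0.0684 and -2.12 (both reversed), -8.24 and -0.608 (the second reversed), and -6.75 for the centromere end in CR 12m. Counting 2 Mb from the outermost assembled base gave 3.76 for active states, 2.20 for state 7 and 1.11 for the changed share in SD 12m at the telomere end. With chromosome X included, active states gave 0.748 and 4.76, the changed share at the centromere end -11.6 in SD 12m and -6.76 in CR 12m, and that at the telomere end in CR 12m 2.60. Stretches of at least 1 kb alone gave 0.101 and 3.08 for active states and, at the centromere end, -11.1 and -6.19 for the changed shares in SD 12m and CR 12m. Without the bins that were unmarked in each group the values were 14.6 and 1.18, then 1.59 (reversed) and 2.0, then -5.67 and -3.48 (the second reversed), then 0.474 and -0.715 (both reversed). Equal weight for each autosome gave -1.65 and 3.36 for state 7, -9.84 and 2.13 for the changed share in SD 12m and -5.41 and 2.83 in CR 12m. Bins with a unique centre alone gave 2.93 and 4.07, -1.87 and 2.32, -9.27 for the centromere end in SD 12m, and -4.74 and 2.59 in CR 12m.

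Leaving out each autosome in turn gave -2.25 (without chromosome 19) to 1.76 (without 9) for active states at the centromere end, with the sign turned without chromosome 2 (-0.0596), 11 (-0.978), 12 (-0.652), 16 (-0.875) or 19, and 1.2 (without 11) to 5.09 (without 17) at the telomere end. State 7 ran from -4.89 (without 3) to -1.59 (without 14) and from 0.400 (without 17) to 3.91 (without 1). The changed share ran from -12.3 (without 3) to -9.43 (without 14) and from 0.10 (without 3) to 2.08 (without 1) in SD 12m, and from -6.88 (without 11) to -5.07 (without 1) and from 1.05 (without 8) to 3.14 (without 17) in CR 12m.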
